A study of Homo sapiens with 36 samples.

Results

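Cadherins and protocadherins were followed in the pseudopods and cell bodies of 6 human cancer cell lines. Genes were taken whose symbol is CDH plus a number (other than CDH1), begins with PCDH, or is DSC or DSG plus a number, on array probe sets that carry 1 gene symbol. The rule gave 75 genes of 19775 on the array, measured by 133 probe sets. They comprise 20 CDH genes, 7 desmosomal cadherins (desmocollins and desmogleins), 12 protocadherin symbols outside the gene clusters and 36 inside them. PCDH10-DT, which is a divergent transcript, and the pseudogenes PCDHB17P, PCDHB18P and PCDHGB8P come in through the symbol rule and do not encode cadherins. Levels were read in every line, and pseudopods were set against cell bodies for the members whose mean cell body intensity was 100 or more.

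Each line was grown for 24 hours on a porous filter, after which the pseudopods that had passed through the pores and the cell bodies left on top were scraped off separately and their RNA hybridised to Affymetrix HG-U133 Plus 2.0 arrays. There were 3 arrays for each of 12 groups of line and fraction. Glioblastoma is represented by U87 and U251, fibrosarcoma by HT1080, prostate carcinoma by DU145 and breast carcinoma by MDA231. MDA435 has been described as a breast line, and its origin has been disputed because it carries melanocytic markers. No group had a genetic change or a drug treatment in the labels. The medium was DMEM for U87, U251 and HT1080 and RPMI-1640 for the rest, each with serum, so medium and line cannot be told apart, while the fractions of a line shared a medium. Each line is a single established line. The labels do not say that replicates came from separate cultures, so p-values measure the spread between these arrays, which may be technical.

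Cadherins are transmembrane proteins that hold cells together through calcium-dependent binding of their extracellular repeats. Classical cadherins are tied inside the cell to catenins and through them to actin, and desmosomal cadherins are tied through plakoglobin, plakophilins and desmoplakin to intermediate filaments. Clustered protocadherins are expressed in combinations that differ between cells, and each first exon has its own promoter. CDH1 (E-cadherin) holds epithelial cells together, and its replacement by CDH2 (N-cadherin) is the best known cadherin switch in cancer. As membrane proteins, cadherins are made on ribosomes bound to the endoplasmic reticulum.

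Values are linear intensities, and a log2 change is a difference of log2(intensity + 16), pseudopod minus cell body unless stated otherwise. A call is an adjusted p under 0.05 from limma with Benjamini-Hochberg adjustment over all 15294 genes tested. Array medians ran from 18.2 to 30.6 intensity units, no pair of arrays held identical values, and each array's nearest neighbour by correlation belonged to its own line in all 36 cases. In bulk fractions, fewer cells of a type and less RNA per cell cannot be told apart. CDH1 was above 500 in 6 of the 12 MDA231 and MDA435 arrays and at 33.2 or less in the other 6, so replicates of these lines did not match each other, and values without those 6 arrays are given for several of the results they touch. The 6 are cell body replicate 2 and pseudopod replicate 3 of MDA231, and cell body replicates 2 and 3 and pseudopod replicates 1 and 2 of MDA435. In MDA435 cell bodies the transcription factor SOX10 had a mean of 1485 against 21.0 or less in the cell bodies of every other line. The melanocytic markers MITF (1827), TYR (605) and S100B (2128) were also highest there. PMEL was not, at 22.5 against 33.7 in HT1080, and MLANA (14.3) and TYRP1 (27.9) were low. The summed level of 7 glial markers was 11189 to 11754 in U251 cell bodies and 642 to 832 in those of U87. MDA435 cell bodies, at 2660 to 3825, lay above those of U87. The sum was 258 to 392 in HT1080, 173 to 416.5 in DU145 and 160 to 211 in MDA231 cell bodies.

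Of the 75 genes, 13 reached a mean of 100 over the 18 cell body arrays. All 13 had a lower average in pseudopods, 10 were called lower and 0 higher, and their median log2 change was -0.91. Among the 9287 genes admitted by the same threshold, 23.6% were called lower and 41.3% higher, with a median of 0.12. The falls were largest for DSG2, PCDHB14, CDH2 and PCDHB5, at -1.45, -1.17, -1.17 and -1.10. DSC2, CDH3 and PCDH17 were below zero without passing the test. Over all genes tested 3188 were called lower and 4549 higher, and with equal array medians 2415 and 6809, a share lower of 41.2% and 26.2%. That scaling moved the median change of all genes tested from 0.05 to 0.17 and the members' median to -0.80, and all 13 stayed below zero. Because the threshold was set on cell body arrays that enter the comparison, it favours members that are high there. Set on the mean of all 36 arrays it admitted 9 members, of which 6 were called lower, with a median of -0.71. A threshold of 200 admitted 6 members, 4 of them called lower. The share of all genes called at these other thresholds is not given here, so the counts have no background. Members just inside the threshold were PCDHB14 (119), PCDHB16 (115), CDH22 (108) and PCDHB5 (104), and just outside were PCDH7 (91.8), CDH17 (84.4), PCDHB6 (78.5) and PCDH10 (75.4).

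**Figure D1:**
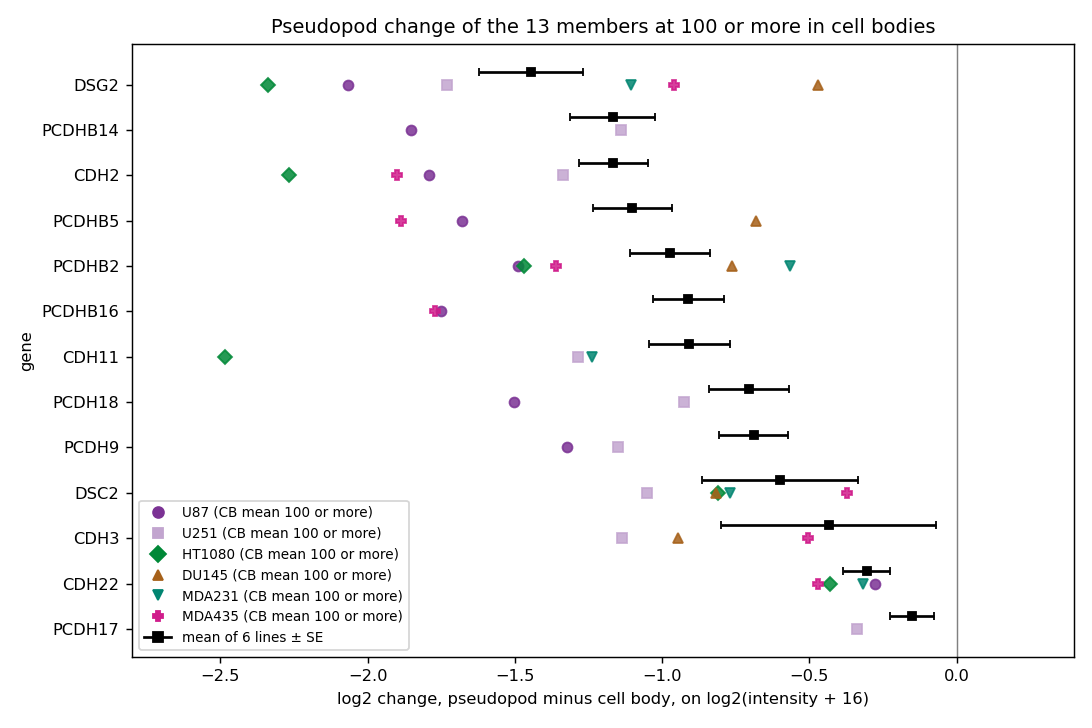
Log2 change (pseudopod minus cell body, on log2(intensity + 16)) of the 13 genes at 100 or more in the mean of the 18 cell body arrays. Black squares with bars are the mean of the 6 lines ± SE, and coloured symbols are single lines in which the gene's cell body mean was 100 or more. Every symbol lies below zero, from -2.48 for CDH11 in HT1080 to -0.28 for CDH22 in U87 among single lines.

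CDH2, the N-cadherin of mesenchymal and neural cells, was high in 4 lines and near background in the other two. Its cell body intensities were 1539.7, 1231 and 1276 in U251, 1006, 1409.9 and 1064 in HT1080, 999, 748 and 633 in MDA435 and 761, 749 and 741 in U87. In MDA231 they were 7.3, 6.5 and 7.1, and in DU145 2.3, 5.2 and 1.0. Neighbours in this order did not differ by the test except for the step from U87 to MDA231, a log2 difference of 5.06 (SE 0.29, adjusted p = 1.05e-14), where 44.5% of all genes tested differed either way. In the pseudopods CDH2 stood at 136, 145 and 425 in U87, 604, 427 and 550.2 in U251, 251.2, 227 and 201 in HT1080 and 129, 178 and 328 in MDA435. Every pseudopod array of these 4 lines lay below every cell body array of its line. The log2 change was -2.27 (SE 0.29, adjusted p = 1.42e-06) in HT1080, -1.90 (SE 0.29, adjusted p = 6.52e-05) in MDA435, -1.79 (SE 0.29, adjusted p = 3.99e-05) in U87 and -1.34 (SE 0.29, adjusted p = 0.00159) in U251. 4 of the 6 MDA435 arrays were CDH1-high. With 1 array left in each MDA435 fraction, and that array assumed to vary like the other groups, the change was -1.56 with an adjusted p of 0.0717.

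CDH11, the mesenchymal OB-cadherin, was high in 3 lines, of which HT1080 and U251 also had CDH2. MDA231 cell bodies held 2152, 585 and 1297, those of HT1080 529, 1016 and 697 and those of U251 577, 599.6 and 419.5, and these lines did not differ from their neighbours by the test. The remaining cell body arrays lay between 7.2 and 27.5. MDA231 thus had the highest CDH11 mean of the 6 lines, 1345 ± 785 (SD, n = 3), together with CDH2 near 7. Pseudopod values were 146, 142 and 73.2 in HT1080, 225, 168 and 232 in U251 and 885, 419 and 317 in MDA231, where the fractions overlapped, while those of HT1080 and U251 did not. The log2 change was -2.48 (SE 0.34, adjusted p = 3.01e-06) in HT1080, -1.28 (SE 0.34, adjusted p = 0.00846) in U251 and -1.24 (SE 0.34, adjusted p = 0.0254) in MDA231. The probe set read here is of a kind that can share sequence with other transcripts. The unmarked CDH11 probe sets were much dimmer, with cell body means of 46.9 and 26.0 over all lines, against 445 for the one read here. With unmarked probe sets alone CDH11 fell by less on average (-0.33, adjusted p = 0.0334) and was called in none of the 3 lines. On those probe sets the cell body difference from the other lines went from 2.14 to 0.02 (adjusted p = 0.949) in U251 and from 2.67 to 0.51 (adjusted p = 0.106) in HT1080, neither called, while MDA231 stayed higher (1.20, adjusted p = 0.000218). The U251 call was lost without its pseudopod replicate 2 (adjusted p = 0.0523). The MDA231 call was also lost without any 1 of 4 of its 6 arrays, with adjusted p-values up to 0.194, while without both of its CDH1-high arrays it remained at -1.43 (adjusted p = 0.0106).

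CDH3, the P-cadherin of basal epithelia, was highest in DU145, at 1219.5, 1127 and 683 in cell bodies, followed by U251 at 385, 446 and 340. HT1080 and U87 cell bodies stayed between 2.3 and 6.8. In MDA231 and MDA435 it followed the arrays and not the fraction, with 214 in MDA231 cell body replicate 2 against 5.6 and 6.1 in its other replicates. Pseudopods held 191, 191 and 129 in U251 and 220, 770.4 and 728 in DU145, where the fractions overlapped. All U251 pseudopod arrays were below all U251 cell body arrays, and the log2 change there was -1.14 (SE 0.90, adjusted p = 0.47), not called. Without the 6 CDH1-high arrays the SE of the averaged CDH3 change was 0.14, against 0.37 with them, and the same change was called in U251 (adjusted p = 0.00556) and in DU145 (-0.95, adjusted p = 0.0451).

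CDH10, a type II cadherin of the nervous system, was a U251 gene, at 200.1, 189 and 198 in cell bodies and 57.9, 62.2 and 65.1 in pseudopods. The arrays of the fractions did not overlap, and the log2 change was -1.45 (SE 0.19, adjusted p = 1.33e-05). Its only probe set is also of the kind that can share sequence with other transcripts. In the cell bodies of the other 5 lines CDH10 lay between 15.3 and 47.8. CDH17, the liver-intestine cadherin, was above 100 in the CDH1-high arrays of MDA231 and MDA435 and at 26.7 or less in every other array of the series. CDH22 had nearly the same level everywhere, 76.9 to 141.5 in the 18 cell body arrays, and its averaged change of -0.31 (SE 0.08, adjusted p = 0.00189) was small. The other CDH22 probe set had a cell body mean of 4.97, and with the mean of both the change was no longer called (-0.12, adjusted p = 0.0975).

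DSG2, the desmoglein of simple epithelia and many cancer cells, was the only member at 100 or more in the cell bodies of all 6 lines. Its cell body intensities were 2843, 3043 and 2252 in DU145, 1552, 1972 and 1729 in HT1080, 979, 1307 and 2186 in MDA435, 1284, 1834 and 1209.9 in MDA231, 1011, 1114 and 804 in U87 and 939, 954 and 1013 in U251. No neighbours in this order differed by the test, and only DU145 was called higher than the mean of the other lines, by 1.08 (SE 0.33, adjusted p = 0.00982), a call lost without its cell body replicate 2 (adjusted p = 0.0586). Pseudopod values were 176, 119 and 484 in U87, 338, 250.3 and 261 in U251, 432, 317 and 266 in HT1080 and 1754, 2028 and 2044 in DU145. In these 4 lines no pseudopod array reached a cell body array. In MDA231, at 499.6, 425 and 1285, and MDA435, at 1548, 819 and 286, the fractions overlapped, and the highest pseudopod values came from CDH1-high arrays. The log2 change was -2.34 (SE 0.43, adjusted p = 1.40e-04) in HT1080, -2.07 (SE 0.43, adjusted p = 6.71e-04) in U87 and -1.73 (SE 0.43, adjusted p = 0.00577) in U251, and -0.47 (SE 0.43, adjusted p = 0.631) in DU145, which was not called. Without the 6 CDH1-high arrays DSG2 was also called lower in MDA231 (-1.40, adjusted p = 0.0126), and its average over lines was -1.62. The second DSG2 probe set had an averaged change of -1.33.

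DSC2, its desmocollin partner, was highest in DU145, at 1401, 1229 and 1005 in cell bodies, and lowest in U87, at 33.9, 30.4 and 20.5. DU145 was above MDA231, next to it on the log2 scale, by 1.80 (SE 0.65, adjusted p = 0.0299), a pair of lines that differed in 36.6% of all genes tested. MDA231 cell bodies held 307, 625 and 190.4 and those of MDA435 38.0, 375 and 741, where the last 2 arrays were CDH1-high. HT1080 and U251 held 189, 242 and 177 and 186, 269 and 161. The pseudopods of DU145 held 572, 736 and 728, those of HT1080 73.1, 139.6 and 120.3 and those of U251 96.2, 79.7 and 90.6, without overlap with the cell bodies of the same line. None of these falls was called, at -0.82 (SE 0.65), -0.81 (SE 0.65) and -1.05 (SE 0.65), nor was the average of -0.60 (SE 0.27, adjusted p = 0.061). The average was called under 6 alternatives, among them without the 6 CDH1-high arrays (-0.55, adjusted p = 0.000175), when the falls in all 3 of these lines were called too. The remaining desmosomal members, DSC1, DSC3, DSG1, DSG3 and DSG4, were under 100 in the cell bodies of every line.

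**Figure D2:**
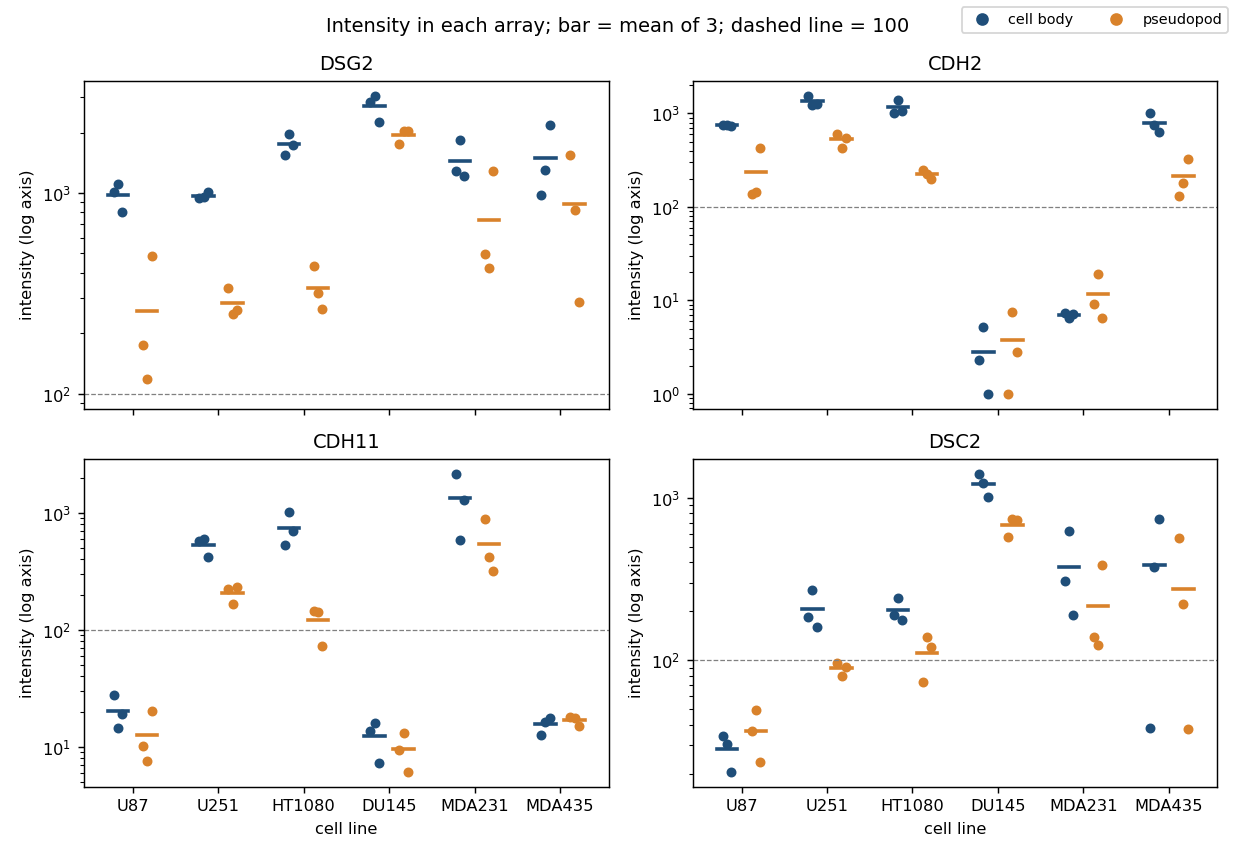
Intensity (log axis) of DSG2, CDH2, CDH11 and DSC2 in every array, by cell line. Points are arrays (blue cell body, orange pseudopod), bars are means of 3 arrays and the dashed line marks 100. DSG2 is above 100 in every array, whereas CDH2 is near or under 19 in DU145 and MDA231 and CDH11 under 28 in U87, DU145 and MDA435.

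The 250 bases before the start of DSG2 are shown because DSG2 is the member present in all lines. E-box words read by SNAI and ZEB repressors (CACCTG or its reverse complement CAGGTG, searched on both strands) are in capitals, and the strand is plus in RefSeq GRCh38.p14, chr18:31497927-31498176.
DSG2: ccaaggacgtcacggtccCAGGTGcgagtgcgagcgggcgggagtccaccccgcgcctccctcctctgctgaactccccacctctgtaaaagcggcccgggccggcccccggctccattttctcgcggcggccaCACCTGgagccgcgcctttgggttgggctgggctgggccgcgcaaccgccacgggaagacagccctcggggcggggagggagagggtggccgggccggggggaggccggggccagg
Windows of this length were at hand for 15 of the 21 members that reached 100 in some line. The words occurred in 2 of their 18 windows (11.1%), those of DSG2 and 1 of 2 windows of DSC2, and in 17.5% of all 35116 windows. A match is a description of the letters and not a binding site.

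By cell body mean, the protocadherins outside the clusters reached 100 in the glioblastoma lines U87 and U251 and in no other line. PCDH9 and PCDH18, delta protocadherins of the nervous system and mesenchyme, were high in both glioblastoma lines. PCDH9 cell bodies held 365, 433 and 541 in U87 and 366, 327 and 315 in U251, and at most 89.0 in any other line. Its pseudopods held 151, 131 and 231 and 129.9, 129 and 171, all below the cell bodies of the line. The log2 changes were -1.32 (SE 0.29, adjusted p = 0.00103) and -1.15 (SE 0.29, adjusted p = 0.00598). The PCDH9 probe set is of the kind that can share sequence with other transcripts. Unmarked ones, with cell body means of 29.7 and 6.29, had averaged changes of -0.42 and -0.13. PCDH18 cell bodies held 448, 221 and 474 in U87 and 273, 377 and 237 in U251. Its pseudopods held 66.6, 96.9 and 238 and 131, 169.8 and 138, where those of U87 overlapped with the cell bodies and those of U251 did not. The log2 change was -1.50 (SE 0.34, adjusted p = 0.00132) in U87 and -0.93 (SE 0.34, adjusted p = 0.0606) in U251, and only the first passed.

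PCDH17, PCDH10 and PCDH19, also delta protocadherins, reached 100 in U251 alone. PCDH17 stood at 766, 632 and 536 in U251 cell bodies and 435, 569 and 509.5 in its pseudopods, and the fractions overlapped. Its change of -0.34 (SE 0.18, adjusted p = 0.245) did not pass, whereas on the brightest of its probe sets, an alternative chosen after seeing the data, it did (-0.55, adjusted p = 0.026), and so did the average over lines (-0.30, adjusted p = 0.000463). PCDH10 stood at 324, 324 and 382 in U251 cell bodies and 253, 205 and 227 in pseudopods. The arrays did not overlap, and the change was -0.56 (SE 0.22, adjusted p = 0.0809). MDA435 came next, with 66.8, 85.7 and 52.9 in its cell bodies. PCDH19 fell from 186, 174 and 193 to 72.9, 84.2 and 53.8, a change of -1.23 (SE 0.17, adjusted p = 2.84e-05). Cell bodies of the other lines held at most 18.5 for PCDH19. PCDH7, in contrast, reached a mean of 100 in U87 alone, at 522, 209.9 and 295 in cell bodies and 58.7, 52.0 and 272 in pseudopods. Its U87 pseudopod replicate 3 overlapped with the cell bodies. The call of -1.57 (SE 0.52, adjusted p = 0.0267) was lost without any 1 of 4 of the 6 U87 arrays, with adjusted p-values up to 0.177. PCDH7 was also seen in cell bodies of MDA231, at 54.6, 131.8 and 40.8, and of U251, with a mean of 65.0.

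The beta cluster on chromosome 5 gave the largest share of falling members. Of its 17 genes on the array 14 were tested, and 13 of these were called lower in the averaged comparison and 0 higher, against 20.8% and 29.7% of all genes tested. The exception was the pseudogene PCDHB17P. Of the 6 PCDHA genes 3 were tested and 0 called, and of the 13 PCDHG genes 6 were tested and 3 called lower. With equal array medians or quantile normalization 1 PCDHA and 1 PCDHG gene were called higher, and the same 13 PCDHB genes were called lower. These counts are over members that passed the filter on low values in at least 1 group. Genes of the cluster are similar in sequence. The probe sets of PCDHB2, PCDHB5, PCDHB7, PCDHB14 and PCDHB16 are not of the kind marked as shared between transcripts. That of PCDHB6 is, and its unmarked probe set fell by 0.87 on average. PCDHB3, PCDHB12, PCDHB13 and PCDHB18P, all called lower, were also read on marked probe sets. Signal shared between these genes was not tested, so the called falls may not be separate.

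Promoter windows of 14 beta cluster genes were searched for the 9-letter word that most of them share. It was GGTGGCGCT, found in 12 of the 14 windows of 250 bases before the start (85.7%), in 0 of 13 PCDHA windows, 0 of 25 PCDHG windows and 0.41% of all 35116 windows, on either strand. PCDHB1 and PCDHB8 lacked it, of which PCDHB8 was called lower on average (-0.37, adjusted p = 0.000768) and PCDHB1 did not pass the filter. A link between the word and the pseudopod change was not tested. The word was picked on these windows, so its share among them is a description. For the 5 members that reached 100 in some line and had a window, its last 120 bases are printed with the word in capitals. All lie on the plus strand of RefSeq GRCh38.p14, at chr5:141094495-141094614, chr5:141135086-141135205, chr5:141172524-141172643, chr5:141223223-141223342 and chr5:141182267-141182386 in that order.
PCDHB2: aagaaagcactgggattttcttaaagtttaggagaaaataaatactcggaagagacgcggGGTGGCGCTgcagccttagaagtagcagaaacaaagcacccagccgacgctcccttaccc
PCDHB5: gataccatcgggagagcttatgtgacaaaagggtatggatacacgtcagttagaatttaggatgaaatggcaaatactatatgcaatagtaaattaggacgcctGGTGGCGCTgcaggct
PCDHB7: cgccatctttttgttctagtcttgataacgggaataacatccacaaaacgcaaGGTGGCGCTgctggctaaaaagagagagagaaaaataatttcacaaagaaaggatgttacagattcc
PCDHB14: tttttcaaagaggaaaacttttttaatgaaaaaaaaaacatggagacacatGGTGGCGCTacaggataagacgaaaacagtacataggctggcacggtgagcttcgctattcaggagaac
PCDHB16: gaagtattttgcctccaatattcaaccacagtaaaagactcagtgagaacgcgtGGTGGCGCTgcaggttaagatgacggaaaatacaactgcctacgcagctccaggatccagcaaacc
The word began 60 bases before the start in PCDHB2, 67 in PCDHB7, 69 in PCDHB14 and 66 in PCDHB16, and 16 bases before it in PCDHB5.

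The beta genes differed in the lines where they were high. PCDHB2 was at 100 or more in 5 lines, with 487, 452 and 333 in DU145, 349, 318 and 230.2 in MDA435 and 361, 250.1 and 273 in U87 cell bodies. Below these came 217, 90.6 and 160.1 in MDA231, 118, 118 and 74.4 in HT1080 and 19.6, 10.5 and 9.9 in U251. The steps from U87 to MDA231 (0.91, adjusted p = 0.0271) and from HT1080 to U251 (where 40.5% of all genes tested differed) passed, and the others did not. PCDHB16 was confined at 100 or more to MDA435, at 387, 395 and 252, and U87, at 260.4, 224 and 289, with every other cell body array at 37.2 or less. PCDHB14 was at 100 or more in U87, at 314, 217 and 329.6, and U251, at 141, 170.1 and 137, and in U251 it was the only beta gene at that level. PCDHB5 was highest in U87, at 164, 272 and 195, DU145, at 183, 146 and 186, and MDA435, at 179.7, 147 and 85.7, and lowest in MDA231, at 12.7, 2.3 and 2.8. U87 was the line with all 6 of PCDHB2, PCDHB5, PCDHB6, PCDHB7, PCDHB14 and PCDHB16 at 100 or more, and each was called higher there than the mean of the other lines. Cell body levels admitted these genes, PCDHB7 through U87 alone, so these calls are a description and no test. Of all genes tested, 18.7% were called higher in U87.

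**Figure D3:**
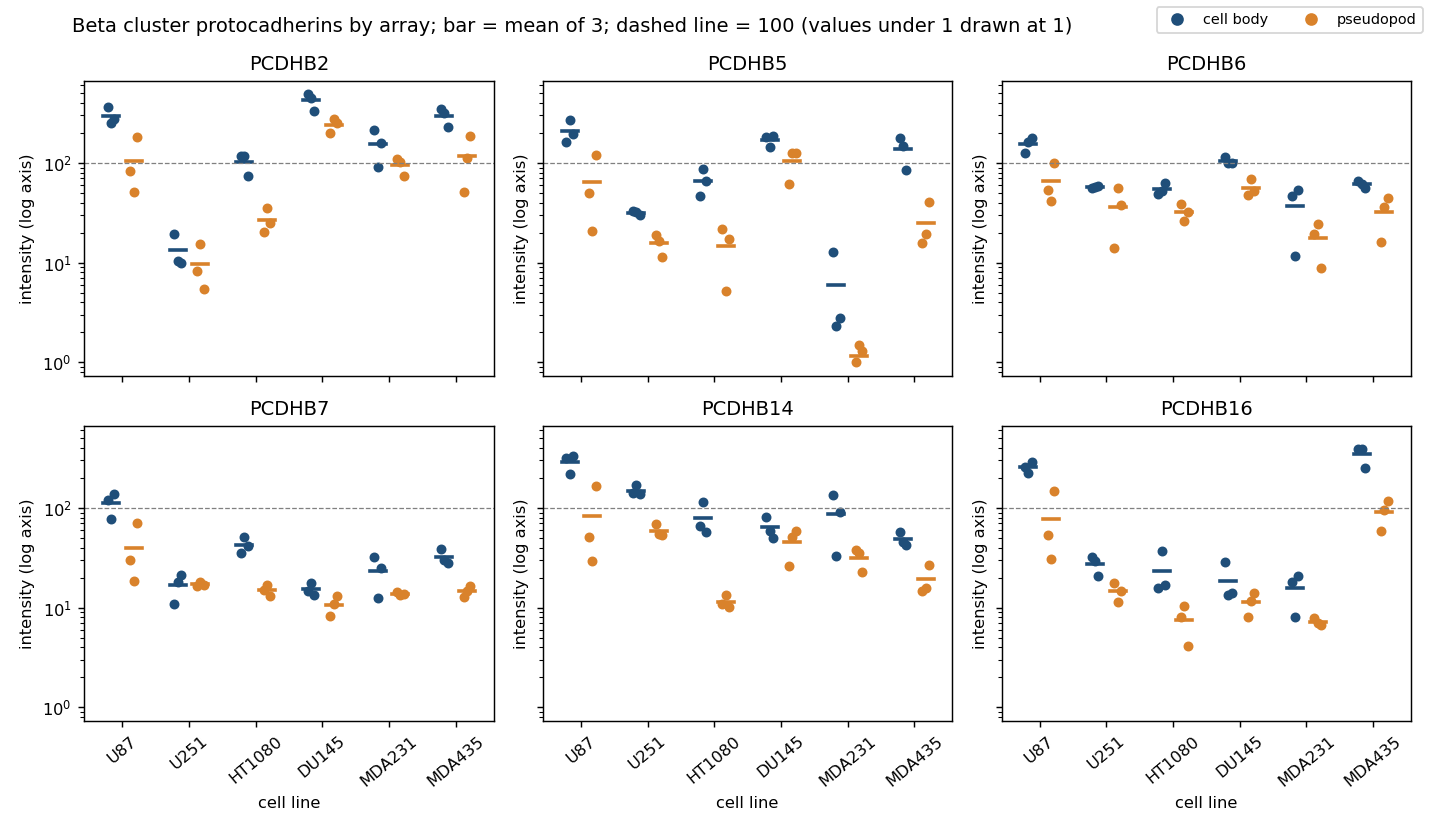
Intensity (log axis) of 6 beta cluster protocadherins in every array, by cell line. Points are arrays (blue cell body, orange pseudopod), bars are means of 3 arrays, the dashed line marks 100 and values under 1 are drawn at 1. U87 is the line with all 6 cell body means above 100, while PCDHB16 exceeds 100 in the cell bodies of U87 and MDA435 only.

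In the pseudopods of U87 the beta genes stood at 82.9, 50.7 and 182 for PCDHB2, 50.5, 20.7 and 120.2 for PCDHB5, 51.5, 29.5 and 168 for PCDHB14 and 53.0, 30.6 and 149 for PCDHB16. All were below the cell bodies, with replicate 3 the highest each time. The log2 changes in U87 were -1.49 (SE 0.33, adjusted p = 0.00137), -1.68 (SE 0.33, adjusted p = 3.68e-04), -1.85 (SE 0.35, adjusted p = 2.62e-04) and -1.75 (SE 0.29, adjusted p = 6.78e-05) in the same order. PCDHB6 went from 127, 161 and 178 to 53.1, 42.0 and 101 and PCDHB7 from 120.4, 76.7 and 138 to 30.1, 18.4 and 70.5, without overlap. PCDHB6 fell by 1.13 (SE 0.30) there, a call lost without pseudopod replicate 2 (adjusted p = 0.0559), and PCDHB7 by 1.28 (SE 0.22). In MDA435 the pseudopods held 59.2, 94.9 and 118 for PCDHB16, 15.9, 19.6 and 40.2 for PCDHB5 and 51.2, 113 and 187 for PCDHB2, again without overlap with cell bodies. The changes were -1.77 (SE 0.29, adjusted p = 1.61e-04), -1.89 (SE 0.33, adjusted p = 2.48e-04) and -1.36 (SE 0.33, adjusted p = 0.00582), and the last was lost without pseudopod replicate 1 (adjusted p = 0.063). Without the 6 CDH1-high arrays, which left 1 array a fraction, none of the 3 was called, at -1.59 (adjusted p = 0.0965), -1.80 (adjusted p = 0.0977) and -0.84 (adjusted p = 0.448). PCDHB2 in HT1080 went from 118, 118 and 74.4 to 20.3, 35.1 and 25.2, a fall of 1.47 that was called. The same gene in DU145 went from 487, 452 and 333 to 199.5, 275 and 252, without overlap, and its change of -0.76 (SE 0.33, adjusted p = 0.217) was not called. PCDHB14 in U251 stood at 68.7, 54.6 and 54.1 in pseudopods, a change of -1.14 (SE 0.35, adjusted p = 0.0265) that was lost without any 1 of 5 of the 6 U251 arrays, with adjusted p-values up to 0.0858. From the gamma cluster, PCDHGB5 passed 100 in MDA435 alone, at 108, 147 and 85.3 in cell bodies and 42.7, 64.5 and 62.6 in pseudopods, a called change of -0.82 (SE 0.17, adjusted p = 0.00115) on a probe set marked as shared. That call was lost without the CDH1-high arrays (-0.65, adjusted p = 0.197) and with the arrays of MDA435 fitted alone.

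Read by line, the 21 members that reached 100 in the cell bodies of some line formed 6 different sets. U87 had 12 of them, U251 12, MDA435 10, and HT1080, DU145 and MDA231 6 each. U87 combined CDH2, CDH22 and DSG2 with PCDH7, PCDH9, PCDH18 and 6 beta protocadherins. U251 combined CDH2, CDH3, CDH10, CDH11, DSC2 and DSG2 with PCDH9, PCDH10, PCDH17, PCDH18 and PCDH19, and had PCDHB14 as its only beta gene. HT1080 had CDH2, CDH11, CDH22, DSG2, DSC2 and PCDHB2, while DU145 had CDH3 with DSG2, DSC2 and 3 beta genes and neither CDH2 nor CDH11. MDA231 had CDH11, CDH17, CDH22, DSC2, DSG2 and PCDHB2. MDA435 had the same without CDH11, and added CDH2, CDH3, PCDHB5, PCDHB16 and PCDHGB5. CDH17 in both lines and CDH3 and DSC2 in MDA435 reached 100 through CDH1-high arrays, and without those arrays DSC2 was lower in MDA435 than in the other lines (-2.09, adjusted p = 2.15e-06). Against the mean of the other 5 lines, the number called higher and lower was 10 and 5 in U87, 9 and 6 in U251, 2 and 7 in HT1080, 6 and 11 in DU145, 1 and 7 in MDA231 and 7 and 7 in MDA435. Over all genes tested the shares higher and lower were 18.7% and 25.6% in U87, 21.3% and 26.1% in U251, 17.7% and 19.4% in HT1080, 21.4% and 20.9% in DU145, 22.2% and 18.5% in MDA231 and 23.9% and 20.5% in MDA435. These members were admitted by their cell body levels, so the counts describe the sets and are no test of them. The 6 cell body groups differed by the F test for 20 of the 21 members, all but CDH22, against 80.6% of all genes tested.

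**Figure D4:**
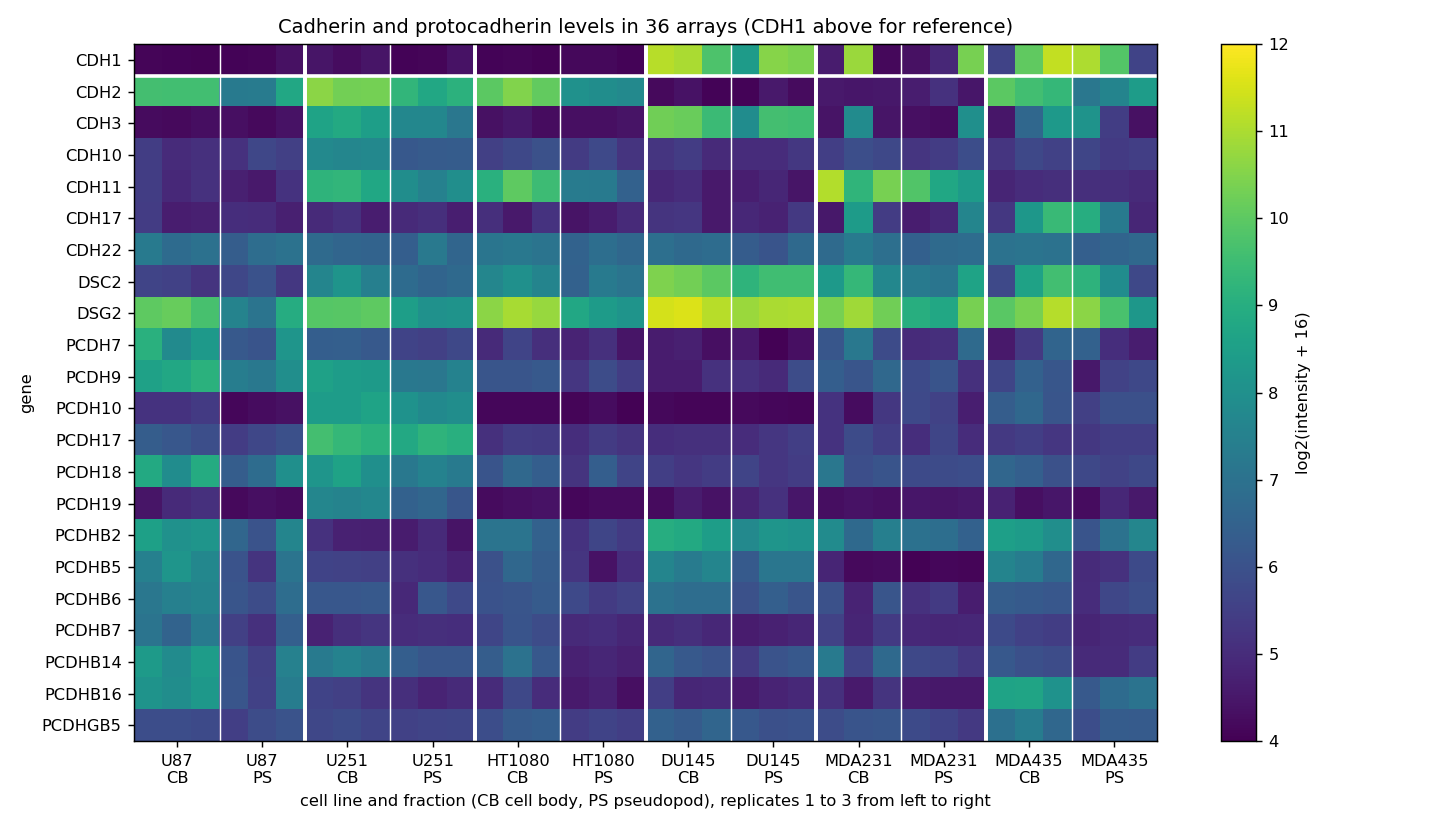
Level, as log2(intensity + 16), of the 21 members that reached 100 in the cell bodies of some line, with CDH1 above for reference, in each of 36 arrays. Columns are arrays in groups of 3 (CB cell body, PS pseudopod, replicates 1 to 3 from left to right) and rows are genes. DSG2 is bright in all lines, PCDH10, PCDH17 and PCDH19 are brightest in U251, and CDH1, CDH3, CDH17 and DSC2 vary between replicates of MDA231 and MDA435.

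Within lines, the number of members at 100 or more that were called lower in pseudopods was 11 of 12 in U87, 7 of 12 in U251, 4 of 6 in HT1080, 5 of 10 in MDA435, 1 of 6 in MDA231 and 0 of 6 in DU145. None was called higher in any line, and all were below zero in each. Each line's threshold was set on cell body arrays that enter its comparison, which favours members that are high there. PCDH7 and PCDHB7 were admitted in U87 alone, CDH10, PCDH10, PCDH17 and PCDH19 in U251 alone and PCDHGB5 in MDA435 alone. The counts are therefore a description and no test of the members. Among all genes at 100 or more in the cell bodies of the same line, the share called lower was 17.8% in U87, 14.6% in U251, 17.9% in HT1080, 13.2% in MDA435, 6.99% in MDA231 and 2.97% in DU145, and the share called higher was 18.1%, 8.26%, 19.2%, 4.37%, 1.7% and 1.26% in the same order. The members' median changes were -1.53 in U87, -1.14 in U251, -1.87 in HT1080, -0.89 in MDA435, -0.67 in MDA231 and -0.76 in DU145. In DU145, where CDH3, DSC2, DSG2, PCDHB2, PCDHB5 and PCDHB6 were tested, pseudopods lay below cell bodies without overlap for 5 of 6, against 17.7% of all genes at 100 or more in its cell bodies. Without the 6 CDH1-high arrays the count called lower was 10 in U251, 5 in HT1080, 2 in DU145 and 2 in MDA231. MDA435 then had 1 array a fraction left, too few to read a count of calls. The share of all genes called under that setting is not given here, so these counts have no background. In MDA231 the count called lower was 0 without pseudopod replicate 2, cell body replicate 1 or cell body replicate 3. The highest of the 3 U87 pseudopod arrays was replicate 3 for 12 of 12 members, and for 90.6% of the 1526 genes at 100 or more called lower in that line, and its part in the U87 values was not tested. Without it 11 of the 12 were again called.

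The size of the fall differed between lines for 2 of the 13 admitted members by the moderated F test, CDH2 (adjusted p = 4.56e-04) and CDH11 (adjusted p = 0.0142), against 0.991% of genes admitted by the same threshold. CDH2 was near background in 2 of the 6 lines and CDH11 in 3. Over the lines where each was at 100 or more, a choice made after seeing the data, the change was not shown to differ for CDH2 in 4 lines (adjusted p = 0.857) or CDH11 in 3 (adjusted p = 0.406), nor for DSG2 in 6 lines (adjusted p = 0.445). Single-line values of DSG2 still ran from -2.34 to -0.47.

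In the CDH1-high arrays some members moved together with CDH1 and others against it, and those named here are examples. In MDA231, CDH17 was 321 and 182 in the CDH1-high cell body and pseudopod arrays and between 7.1 and 26.7 in the other 4. CDH3 was 214 and 239.8 there, against 3.1 to 6.1. In MDA435, DSC2 was 221.7 to 741.1 in the 4 CDH1-high arrays and 38.0 and 37.8 in the other two. PCDH7 also moved with CDH1 in MDA231, at 131.8 and 92.7 in the CDH1-high arrays against 15.5 to 54.6. CDH11 moved the other way in MDA231, where the CDH1-high arrays had the lowest value of each fraction, 585 and 317. So did PCDHB2, at 90.6 and 73.8, and the weaker PCDH10, at 3.4 and 9.7. CDH2 stayed at 6.5 in both CDH1-high arrays of MDA231. In MDA435 it was present in all 6 arrays, alongside CDH1 values up to 2463. There CDH2 was lower in the CDH1-high arrays, at 748 and 633 against 999 in cell bodies and 129 and 178.5 against 328 in pseudopods. All 14 epithelial markers are on the array, and none was at 0. Their summed level in MDA231 was 14635 and 15176 in the CDH1-high arrays and 6859 to 9176 in the others, and in MDA435 7044 to 13548 against 1516 and 1929. These arrays were told apart by their CDH1 value, so no test was made between them, and the part of other cells in these values was not tested. CDH17 was called higher in MDA435 than in the other lines, by 2.48 (SE 0.68, adjusted p = 0.00357), but not without the CDH1-high arrays (0.36, adjusted p = 0.407) or without MDA435 cell body replicate 3 (adjusted p = 0.0954).

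**Figure D5:**
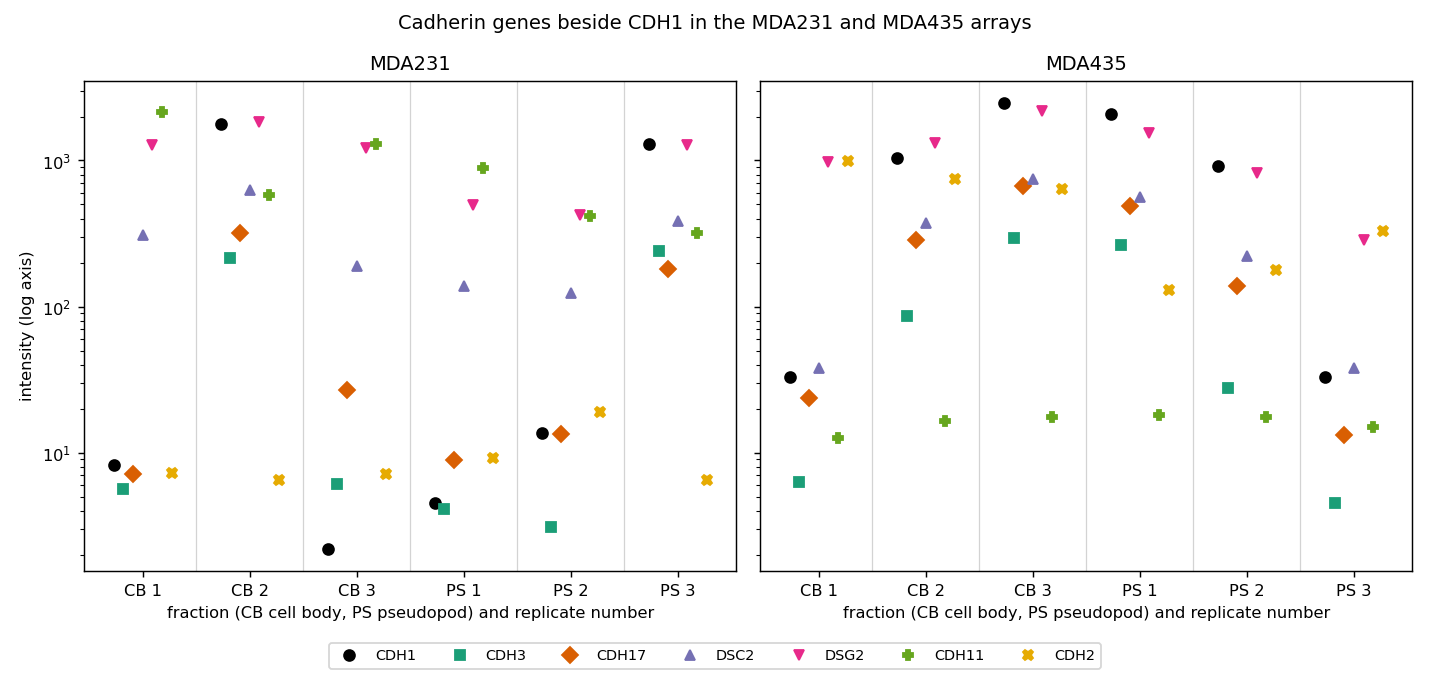
Intensity (log axis) of CDH1 and 6 members in each array of MDA231 (left) and MDA435 (right), by fraction (CB cell body, PS pseudopod) and replicate number. Where CDH1 (black circles) is above 500, CDH3, CDH17 and DSC2 are higher than in the other arrays of that line and fraction. In those arrays CDH2 stays near 7 in MDA231, and in MDA435 it is present but lower than in the other array of the fraction.

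The genes that work with cadherins moved in both directions, and their counts stand against 20.8% lower and 29.7% higher among all genes tested. Of 11 tested catenins and armadillo proteins, among them those that bind cadherin tails, 3 rose, near the share of all genes, and 1 fell on average (median 0.12). CTNNB1, the beta-catenin that links classical cadherins to the actin-binding alpha-catenin, fell by 0.29 (SE 0.08), a call lost with equal array medians, and PKP4, PKP3 and CTNNAL1 rose, PKP4 by 0.42 (SE 0.08, adjusted p = 4.95e-05). Of 4 desmosomal plaque genes only PERP, which is itself a membrane protein, was called, at -0.35 (SE 0.09, adjusted p = 0.00218). Of 7 actin proteins linked to junctions, 4 fell and 1 rose, against 2 and 2 with equal array medians. Vinculin (VCL) led the falls at -0.81 (SE 0.07, adjusted p = 1.38e-10), while ABLIM1 rose, at 0.53 (SE 0.10, adjusted p = 4.79e-05). Among 4 nectins, which are cadherin-independent adhesion receptors of the same junctions, NECTIN3 fell with -1.37 (SE 0.11, adjusted p = 2.45e-11) and NECTIN2 with -1.30 (SE 0.13, adjusted p = 9.33e-10), and the other two were not called.

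Other members of the cadherin superfamily fell in 7 of 11 tested genes and rose in 0, against 20.8% and 29.7% of all genes tested, with a median of -0.51 against 0.05. FAT1, a giant atypical cadherin, changed by -1.13 (SE 0.12, adjusted p = 6.83e-09), and the calsyntenin CLSTN1 by -1.08 (SE 0.15, adjusted p = 5.44e-07). CELSR2 and CELSR3, the flamingo cadherins, were each at -0.79. Of 8 tested genes of cadherin cleavage and turnover 5 fell and 1 rose, against the same shares. The fallers included the sheddase ADAM10, at -1.26 (SE 0.11, adjusted p = 1.08e-10), and the gamma-secretase subunits PSEN2, at -1.21 (SE 0.11, adjusted p = 2.67e-10), and NCSTN, at -1.16 (SE 0.11, adjusted p = 1.34e-09). The riser was CBLL1, a ubiquitin ligase of E-cadherin, at 0.28 (SE 0.06, adjusted p = 3.50e-04). Of 9 transcription factors that repress CDH1 or go with the cadherin switch, 3 rose, near the share of all genes, and 0 fell (median 0.13), namely ZEB1, at 0.37 (SE 0.12, adjusted p = 0.0101), SNAI2, at 0.37 (SE 0.10, adjusted p = 0.00335), and TWIST2, at 0.20 (SE 0.06, adjusted p = 0.0103). CTNND1 and CDHR4 were not analysed here. These lists share the averaged comparison with the members, and their counts are descriptions.

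The other 54 members were under 100 in the cell bodies of every line. Their highest line mean ran from 0.667 to 96.5 with a median of 24.8, and 29 of them passed the filter on low values. Counting every tested member, 28 of 50 were called lower and 0 higher, against 20.8% and 29.7% of all genes tested, 45 were below zero, and the median change was -0.31. Below the threshold the named falls include PCDHB13 (-0.92, adjusted p = 2.51e-06) and PCDHB3 (-0.91, adjusted p = 1.72e-06), both singled out after their values were seen. Both were read on probe sets marked as shared. CDH19, a cadherin of Schwann cells and melanocytes, belongs to this group through the probe set used. On another probe set, also looked at after its values were seen, it was a MDA435 gene with cell body intensities of 272, 412 and 219 and pseudopod intensities of 38.9, 59.6 and 81.9. The change there was -2.05 (adjusted p = 3.18e-07), and all other cell body arrays were at 14.2 or less.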

How the data were processed

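The deposited values are linear intensities per probe set for 36 arrays (54593 probe sets, 0 to 9883.2). RMA and Partek are the tools in the submitters' processing notes, and the sources used here do not say which program wrote the values. RMA output is on a log2 scale, unlike the deposited intensities. The arrays shared a 2% trimmed mean of 149.2 to 149.6. Linear values were not what the planned test assumed, so log2(intensity + 16) was computed first.

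Of the probe sets 41074 carried 1 gene symbol, 1798 several and 11721 none, from the platform annotation. For 41020 of those with 1 symbol the gene ID was found in RefSeq GRCh38.p14, whose symbol was used. This changed 0 of the members' symbols. Each of 19775 genes was read on its probe set with the highest mean log2 level. The 15294 genes with a group mean of 24.4 or more were tested with limma 3.58.1 (R 4.3.3) on 12 group means with 24 residual degrees of freedom, moderated two-sided tests and Benjamini-Hochberg adjustment at 0.05. Named genes are the 21 members at 100 or more in the cell bodies of some line, and others are marked as seen afterwards. The members and gene lists were chosen with earlier results of these data known. The number of arrays limits the precision. The alternatives were other scalings, pseudocounts, filters, probe set rules, thresholds, blocks and left-out arrays. The choice of the brightest probe set and of the lines that express a gene was added after seeing the data. The test was tried on simulated data. Figures were drawn with matplotlib 3.10.9 in Python 3.11.15.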

Additional observations from a re-analysis of the deposited data

Results flagged for a closer look

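The pseudopod change differed between lines by the moderated F test of limma for 4 of the 50 tested members, against 1.04% of all genes tested. The adjusted p was 0.000456 for CDH2, 0.0142 for CDH11, 0.0039 for CDH10 and 0.00144 for PCDH19. CDH10 and PCDH19 reached 100 in U251 alone, where they changed by -1.45 and -1.23. CDH2 and CDH11 changed by 0.06 and -0.15 in DU145, where both were near background.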

How the results depend on the processing

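Averaged over lines, 10 to 11 members were called lower without any 1 array, and 10 with equal array medians or quantile normalization. The count was 4 at a threshold of 200 and 6 with the threshold on all arrays, which admit fewer members. In MDA231 the count called lower was 0 with equal medians, pseudocount 1, unmarked probe sets or the line alone, 2 without the 6 CDH1-high arrays or with array weights, and 0 to 1 without any 1 array. In DU145 it was 1 with the mean of all probe sets or unmarked ones, 2 without the 6 arrays or with weights, and 3 with the line alone. In MDA435 it was 3 with the line alone, and no count is read without the 6 arrays, which leaves 1 array a fraction. In U251 it was 11 with weights or the line alone. The count of members that differed between lines was 0 with pseudocount 1, 4 with pseudocount 64 and 1 to 6 without any 1 array, with 6 without U87 pseudopod replicate 3. Against other lines, MDA435 had 3 lower with pseudocount 1, U87 2 lower and HT1080 1 higher with unmarked probe sets, and MDA231 2 higher without the 6 arrays. Without 1 array, CDH17 ran from -1.35 to 0.74 in MDA231 and from -1.79 to 0.46 in MDA435, where CDH3 ran from -1.58 to 0.40 and DSC2 from -1.48 to 0.56. No share of all genes called is given here for these alternatives, so their counts have no background. Where not stated, the cause was not tested. Replicate numbers were not used to pair the arrays in the main test. Of 18 same-number pairs 4 correlated above 0.1, with correlations from -0.78 to 0.69. These rest on deviations from means of 3 arrays, so they cannot show whether same-numbered fractions shared a culture. With the replicate block 10 members were called lower on average (median -0.91), PCDH7 lost its call in U87 (adjusted p = 0.0828) and PCDH18 gained one in U251 (adjusted p = 0.0383).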
